A study of Mus musculus with 2 samples.

Results

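Gamma-delta-like T cells with Cd163l1 and Blk were described here as 97 of 2957 aortic leukocytes, chosen by UMI counts (UMIs, unique molecular identifiers, count captured RNA molecules). A cell was a member if it held at least 1 UMI of Cd3d, Cd3e or Cd3g and none of Cd8a or Cd8b1, little RNA of immature T cell, B cell and macrophage genes, and either at least 1 UMI of Cd163l1 or Blk or at least 3 UMIs of Tmem176a and Tmem176b together. The rule therefore used these genes in the same cells, and their values, like every comparison of the members with other cells, are descriptions. The 68 WD and 29 chow members were set beside 244 WD and 135 chow cells that met every clause but the last, called other CD8-negative T cells here.

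The cells came from atherosclerotic aortas of ApoE-/- C57BL6/J mice, a strain that lacks apolipoprotein E, so the mutation was shared by both groups. One group was WD-fed and the other chow-diet-fed, the age of the mice and the length of feeding are not stated in the labels used here, and 10 aortas were pooled for each diet. Viable CD45+ cells, that is leukocytes, were sorted and made into 1 droplet library per diet with a 3' kit. With 1 library per diet there was no replicate check and no test between diets, and all intervals given are exact 95% intervals that cover counting error only.

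Gamma-delta T cells carry a T cell receptor of a gamma and a delta chain in place of the alpha and beta chains of conventional T cells. In mice, one subset leaves the thymus already committed to interleukin 17: it responds to interleukin 1 and interleukin 23 without prior antigen contact, and settles in barrier and connective tissues. The scavenger receptor Cd163l1 (SCART1), the kinase Blk, and the transcription factor genes Sox13 and Maf are known marks of that subset in the mouse. T cell receptor genes are not in the files used here, so the receptor chains of these cells could not be read.

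The files held 2077 WD and 909 chow barcodes with 8782901 and 4608033 UMIs, of which 2061 WD and 896 chow cells were kept. Members had a median of 3342 UMIs in WD and 4309 in chow, against 2691 and 3122 in other CD8-negative T cells, so the members were read more deeply in both libraries. The libraries shared 3 barcodes, of which 1 was a WD member and none a chow member. Scrublet, a doublet caller, marked 2 WD and 4 chow cells, none of them members, where 1.66% and 0.727% of cells had been expected, so doublets may remain unseen.

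Of the 97 members, the Cd163l1 gene alone accounted for 32 of 68 WD and 10 of 29 chow cells. WD members held 140 Cd163l1 UMIs, with a median of 4 and a range of 1 to 15 per Cd163l1-positive cell, and chow members held 61, with a median of 6 and a range of 2 to 11. Blk without Cd163l1 added 3 WD and 4 chow cells, and the remaining 33 WD and 15 chow cells entered through Tmem176a and Tmem176b only. The Cd163l1/Blk cells thus made up 51.5% of WD and 48.3% of chow members.

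Cd163l1 lies on chromosome 7 (140218267 to 140231145, plus strand, mm10), and 32 of the 38 WD and 10 of the 15 chow cells with a Cd163l1 UMI were members. Among CD3-negative cells with B cell markers, whose median totals were 2459.5 UMIs in WD and 2823.5 in chow, 1 of 494 WD and 0 of 134 chow cells held a Cd163l1 UMI. The CD8 clause removed 1 WD T cell with 4 Cd163l1 UMIs and 3 chow T cells with 20 Cd163l1 UMIs and up to 9 in a cell. Blk (chromosome 14, 63372836 to 63417037, minus strand) is a Src family kinase best known from B cells. It gave 39 UMIs in 22 WD members and 18 UMIs in 11 chow members, beside 89 UMIs in 70 WD and 32 UMIs in 24 chow cells with B cell markers. Blk and Cd163l1 were found together in 19 of 32 WD and 7 of 10 chow Cd163l1-positive cells.

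Tmem176a and Tmem176b encode related membrane channel proteins that are known to be abundant in IL-17-type lymphocytes and in dendritic cells. The genes lie head to head on chromosome 6 (48840919 to 48847071, plus strand, and 48833818 to 48841496, minus strand, mm10), and their annotated spans overlap by 578 bases. Whether the authors' counting used strand is not given in the sources used here, so reads of the overlap may be split between the genes uncertainly. Their RefSeq promoter windows, 250 bases before to 50 after a start on GRCm38.p6, are shown because the genes were found together in 61 of 68 WD and 24 of 29 chow members. The capitals mark the 155 bases that both windows hold, on opposite strands.
Tmem176a, chr6:48841233-48841532, plus strand: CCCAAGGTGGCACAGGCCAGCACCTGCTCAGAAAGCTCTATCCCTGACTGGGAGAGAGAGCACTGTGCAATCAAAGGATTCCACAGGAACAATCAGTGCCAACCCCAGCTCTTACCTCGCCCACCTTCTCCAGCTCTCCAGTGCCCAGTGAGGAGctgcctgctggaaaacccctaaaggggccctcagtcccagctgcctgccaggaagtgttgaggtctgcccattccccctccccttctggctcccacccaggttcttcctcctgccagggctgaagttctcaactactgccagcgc
Tmem176b, chr6:48841088-48841387, minus strand: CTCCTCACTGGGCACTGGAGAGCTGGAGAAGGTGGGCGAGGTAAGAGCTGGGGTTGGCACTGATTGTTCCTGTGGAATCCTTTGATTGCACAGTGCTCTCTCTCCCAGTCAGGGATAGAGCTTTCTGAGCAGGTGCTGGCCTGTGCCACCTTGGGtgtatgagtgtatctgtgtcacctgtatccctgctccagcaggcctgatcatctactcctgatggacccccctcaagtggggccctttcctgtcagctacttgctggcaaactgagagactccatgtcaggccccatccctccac
These are 1 of 2 windows listed for Tmem176a and 1 of 3 for Tmem176b. The joint expression follows in part from the rule, but it also held where the rule had not asked for it: both genes were found in 27 of 32 WD and 9 of 10 chow Cd163l1-positive cells. At least 3 Tmem176 UMIs, which 1 of the genes alone can give, were held by 26 of the 32 WD and 9 of the 10 chow cells, and 2 WD and 0 chow Cd163l1-positive cells had none. The sum of both genes had a median of 9 UMIs in WD and 13 in chow Cd163l1-positive cells.

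Pxdc1, a gene given as a marker but not used by the rule (chromosome 13, 34627834 to 34653486, minus strand), was detected in 60.3% of WD members (47.7 to 72.0%, 90 UMIs) and 48.3% of chow members (29.4 to 67.5%, 42 UMIs). Among other CD8-negative T cells it was found in 0.82% of WD cells (2 UMIs) and 11.1% of chow cells (24 UMIs). The ratio of members to other cells was 108 in WD (29.0 to 903) and 5.34 in chow (3.16 to 9.22). Cells with B cell markers gave a UMI in 11.1% of WD and 15.7% of chow cells. In WD that share lay above the 0.82% of other CD8-negative T cells, so cells with B cell markers give no background level for Pxdc1. The cause of the smaller ratio in chow was not tested.

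**Figure D1:**
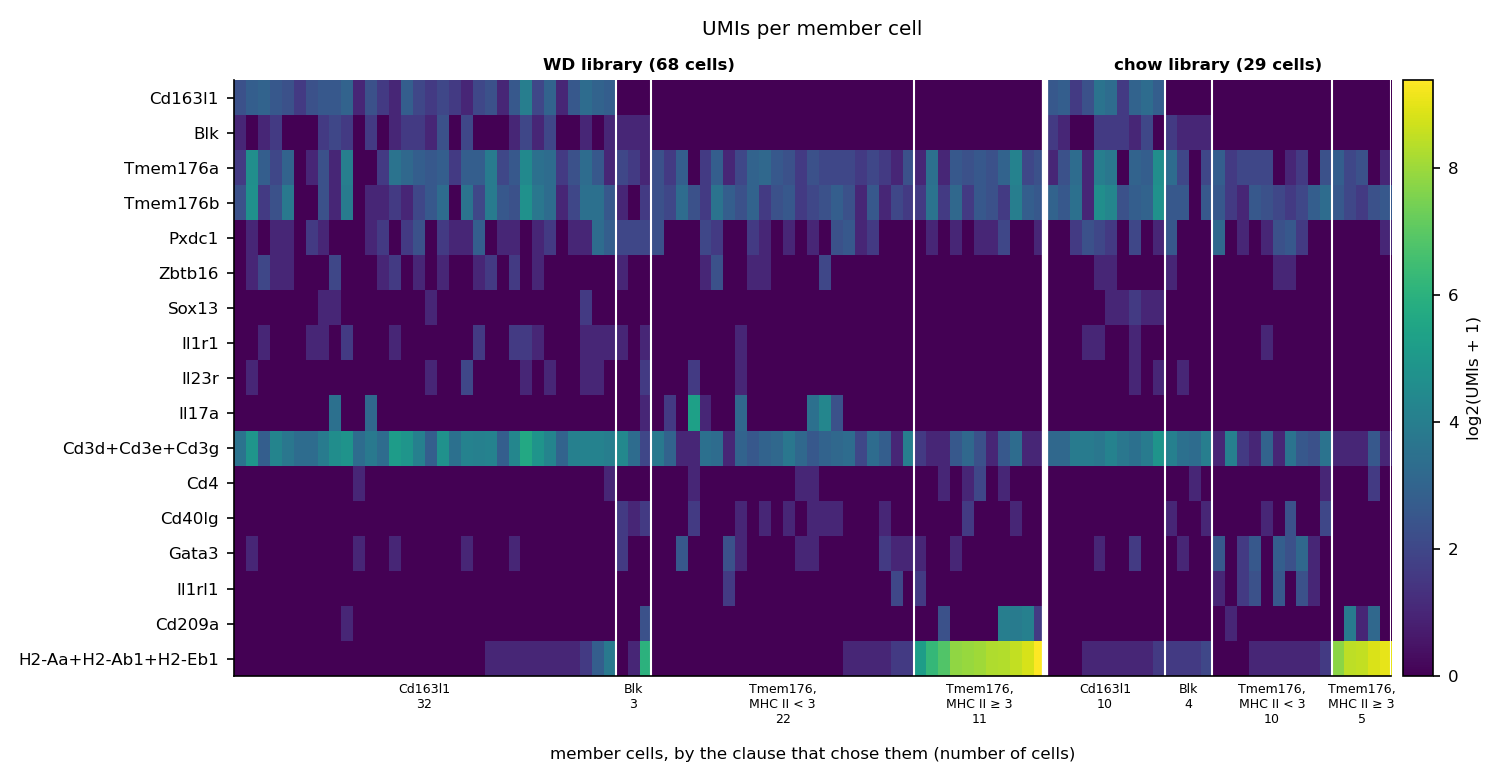
UMIs per cell of marker genes and marker sums in the 68 WD and 29 chow members, 1 column per cell, grouped by the clause that chose them; the colour is log2(UMIs + 1). Cd163l1/Blk cells have high CD3 sums and hold scattered Il23r, Il1r1 and Zbtb16 UMIs, and the Tmem176-only cells include a block with high MHC class II sums and low CD3 sums.

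The label was checked against markers in each clause. The CD3 sum, of which the rule asked for at least 1 UMI, is given as a description only. Cd163l1-positive cells had a median CD3 sum of 16 UMIs in WD (6 to 50) and 13 in chow (8 to 28), against 5.5 and 6 in other CD8-negative T cells. At least 1 UMI of Il23r, Il1r1, Sox13, Zbtb16 or Il17a was found in 24 of 32 WD and 7 of 10 chow Cd163l1-positive cells. At least 2 of these genes were found in 12 of 32 WD and 4 of 10 chow Cd163l1-positive cells, and Cd4 or Cd40lg in 2 of 32 WD and 0 of 10 chow ones. The few cells chosen by Blk without Cd163l1 differed from these: 3 of 3 WD and 3 of 4 chow cells held Cd4 or Cd40lg, which mark helper T cells, and 2 of 3 WD and 0 of 4 chow cells held at least 2 of the 5 IL-17-type genes. One of the WD cells, with 9592 UMIs in all, also held 64 MHC class II UMIs and 4 UMIs of the dendritic cell gene Cd209a.

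For part of the Tmem176-only cells the data went against the label. Of the 33 WD and 15 chow Tmem176-only cells, 11 and 5 had at least 3 UMIs of the MHC class II genes H2-Aa, H2-Ab1 and H2-Eb1, with medians of 260 (36 to 664) and 369 (215 to 515). These 16 cells were deep, with median totals of 8149 UMIs in WD and 8594 in chow, their median CD3 sum was 2 in WD and 1 in chow, and none held a UMI of the 5 IL-17-type genes named above. The remaining 22 WD and 10 chow Tmem176-only cells had median CD3 sums of 7 in WD and 4.5 in chow. At least 1 of the 5 genes was held by 10 of 22 and 3 of 10, and at least 2 by 4 of 22 and 0 of 10. Markers of other lymphocytes were held as well: Cd4 or Cd40lg by 9 of 22 WD and 3 of 10 chow cells. Both Gata3 and Il1rl1, genes of type 2 lymphocytes, were held by 2 of 22 and 6 of 10. The lists and genes that the Tmem176-only cells carried are therefore also given with every cell of at least 3 MHC class II UMIs left out, or in the Cd163l1/Blk cells alone. Leaving such cells out removed 14 WD and 6 chow members, 3 and 1 of them Cd163l1/Blk cells, and also 9 WD and 9 chow cells of the other CD8-negative T cells.

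At the edges of the rule, 4 WD and 2 chow cells entered with exactly 3 Tmem176 UMIs and no Cd163l1 or Blk. Of these, 2 WD cells were MHC class II-rich, and both chow cells held Zbtb16 and Cxcr6. These chow cells also held markers of other T cells or lymphocytes: 1 had 5 Il1rl1 and 6 Gata3 UMIs with a single CD3 UMI, and the other had 4 Gata3 and 4 Cd40lg UMIs. With exactly 2 Tmem176 UMIs, 4 WD and 6 chow cells stayed outside, and 2 WD and 3 chow cells among them held Cxcr6. A single Cd163l1 or Blk UMI was held by 6 WD and 3 chow members, of which 4 and 2 also had at least 3 Tmem176 UMIs, so that UMI by itself admitted 2 WD cells and 1 chow cell.

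Members made up a like share of leukocytes on both diets. They were 68 of 2061 WD cells (3.30%, 2.57 to 4.16%) and 29 of 896 chow cells (3.24%, 2.18 to 4.62%), a ratio of 1.02 (0.651 to 1.63). Of all CD8-negative T cells they were 21.8% in WD (17.3 to 26.8%) and 17.7% in chow (12.2 to 24.4%), a ratio of 1.23 (0.787 to 1.97). The Cd163l1/Blk cells alone were 1.70% of WD and 1.56% of chow leukocytes. Both ratio intervals include 1, but they cover the counting of cells within these 2 libraries only, and with 1 library per diet a difference between diets could not be tested.

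The genes by which IL-17-type lymphocytes are known were detected in the members and seldom in other CD8-negative T cells. Among transcription factors, Zbtb16 encodes PLZF, a factor of innate-like T cells. It had 31 UMIs in 19 WD members and 1 UMI in other WD cells, a log2 ratio of 5.46. In chow it had 5 UMIs in 5 members and 3 UMIs in 3 other cells (2.09, with a ratio interval of 0.99 to 32.8). Of the 5 chow members, 2 were the Tmem176-only cells with Gata3 UMIs described above. Cells with B cell markers held Zbtb16 in 0 of 494 WD and 0 of 134 chow cells, and T cells with CD8 UMIs in 0 of 349 WD and 1 of 153 chow cells. Sox13, a factor of fetal gamma-delta thymocytes, was detected in the Cd163l1-positive members only, with 5 UMIs in 4 WD cells and 6 UMIs in 5 chow cells, and with 0 UMIs in the other CD8-negative T cells of both libraries. Maf and Rora were less restricted: Maf had log2 ratios of 1.15 in WD and 0.99 in chow, and Rora of 1.46 and 1.31.

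Receptors for the cytokines that drive these cells showed the same restriction. Il23r, the specific chain of the interleukin 23 receptor, had 14 UMIs in 10 WD members and 3 UMIs in 3 chow members, and Il1r1, the interleukin 1 receptor, had 19 UMIs in 15 WD and 4 UMIs in 4 chow members. Neither gene gave a UMI in other CD8-negative T cells, so against a floor of 3 UMIs for the group without any, Il1r1 was at least 15.2-fold higher in WD members and at least 4.07-fold higher in chow members. Il17re, a receptor chain for interleukin 17C, had 25 UMIs in WD members against 2 in other WD cells, a log2 ratio of 4.48, and 9 UMIs in chow members against 0. Il7r, the interleukin 7 receptor that many T cells carry, had smaller log2 ratios of 1.06 in WD and 0.92 in chow, and Il18r1, the interleukin 18 receptor, of 1.49 and 2.16.

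Genes of migration and residence followed. Cxcr6, the receptor for CXCL16, was found in 76.5% of WD members (264 UMIs) and 23.0% of other WD cells (134 UMIs), and in 69.0% of chow members (100 UMIs) and 23.7% of other chow cells (80 UMIs). Thinning each cell to 1000 UMIs left shares of 58.8% of members and 13.5% of other cells in WD, and of 41.4% of members and 8.15% of other cells in chow. Among the Tmem176-only cells, Cxcr6 was found in 21 of 22 WD and 7 of 10 chow cells that were not MHC class II-rich, and in 1 of 11 WD and 0 of 5 chow cells that were. Cells with B cell markers held Cxcr6 in 1 of 494 WD and 1 of 134 chow cells. Ccr2, a chemokine receptor that recruits cells to inflamed tissue, had log2 ratios of 1.95 in WD and 1.48 in chow. Ccr6, a chemokine receptor often used to sort IL-17-producing cells, was hardly detected, with 2 UMIs in WD and 1 UMI in chow members.

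**Figure D2:**
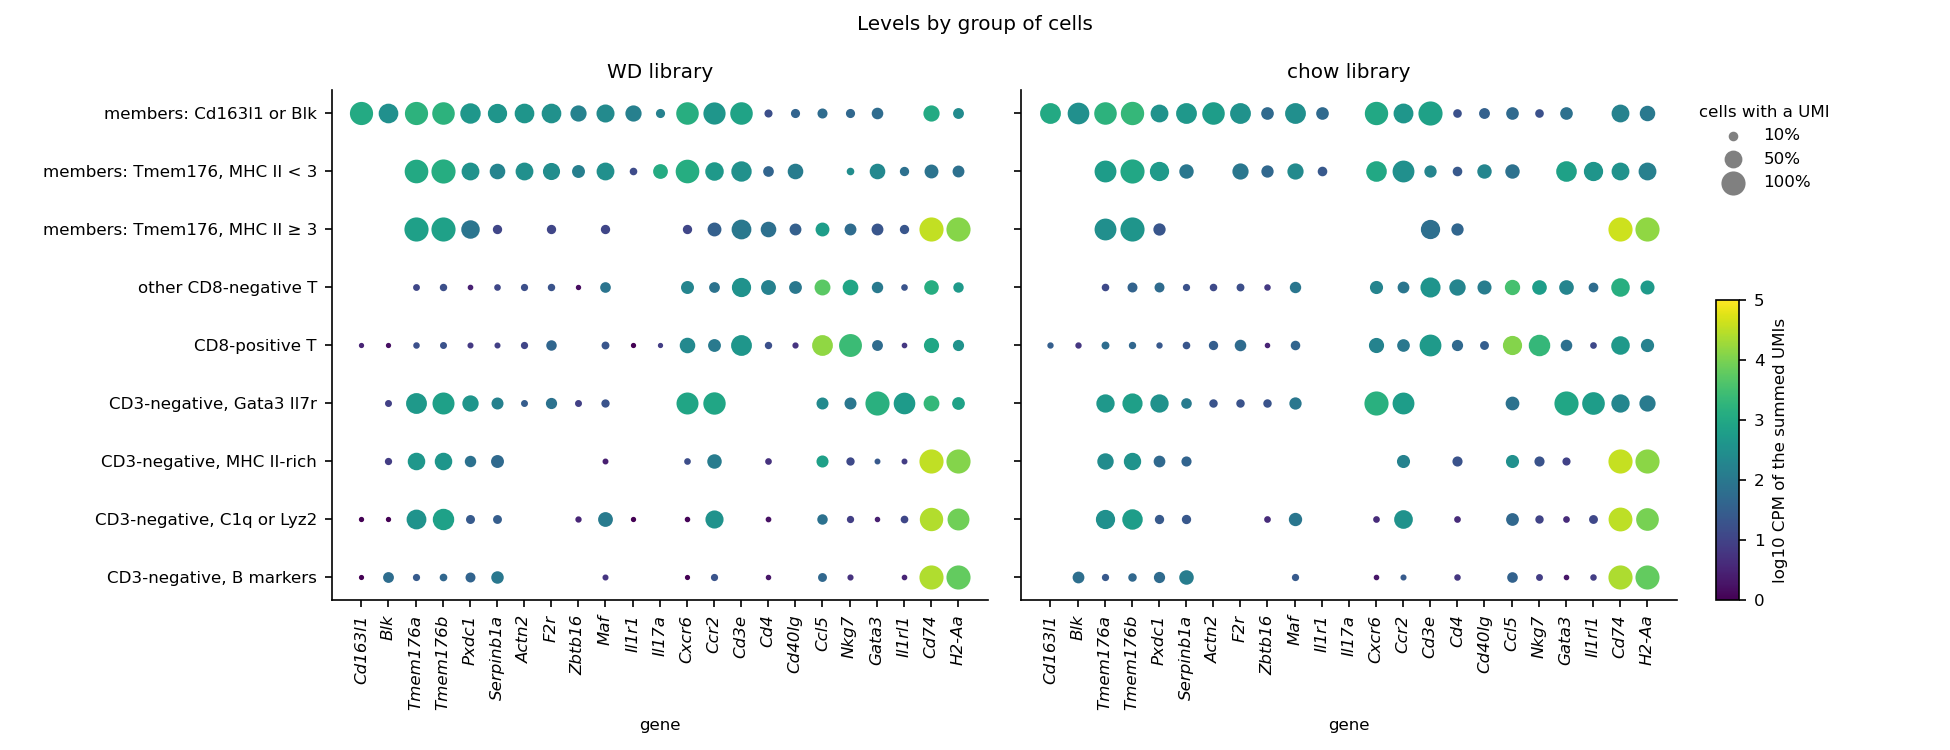
Detection and level of marker genes in 9 groups of cells of each library; the size of a point is the percentage of cells with a UMI and its colour the level in UMIs per 1000000 UMIs of the group (CPM) on a log10 scale. Cd163l1 and Blk, and more weakly Zbtb16 and Il1r1, stand out in the Cd163l1/Blk members, Tmem176a and Tmem176b are also detected in CD3-negative cells of several kinds, and Cd74 and H2-Aa are high in the MHC class II-rich members and in the CD3-negative cells with MHC class II.

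The other members of the IL-17 programme list were mostly higher in the members. Kcnk1, a potassium channel gene, had 29 UMIs in 17 WD Cd163l1-positive cells and 9 UMIs in 6 chow ones, and 0 UMIs in other CD8-negative T cells. The protease inhibitor gene Serpinb1a, the actinin gene Actn2, the neuropeptide receptor chain Ramp1, the leukotriene B4 receptor Ltb4r1 and the water and glycerol channel Aqp3 had log2 ratios between 2.71 and 4.19 in WD and between 1.96 and 3.95 in chow. Of 16 list genes measured, apart from the genes of the rule, 10 were at least 2-fold higher in both libraries and 0 were at least 2-fold lower; the list's median log2 ratio was 1.76 in WD and 1.72 in chow. Over all 5228 genes measured, 230 were at least 2-fold higher in both libraries (4.4%) and 215 lower (4.11%), and the median log2 ratios were 0.02 in WD and -0.01 in chow. Scaled by the median ratio over genes with at least 10 UMIs in each group, which takes 0.19 in WD and 0.25 in chow off every log2 ratio, 160 genes were higher and 326 lower. With cells of at least 3 MHC class II UMIs left out, 12 of 15 list genes were higher and 1 lower, with medians of 2.01 and 2.24, where 4.42% of all genes were higher and 5.02% lower. In the Cd163l1/Blk cells alone 11 of 16 were higher and 1 lower, or 0 lower at the bound, with medians of 2.09 and 1.94, where 4.65% of all genes were higher and 6.42% lower. Similar levels were found outside the members. The summed level of the 28 list genes outside the rule was 5107 CPM in WD and 4246 CPM in chow members, and 6569 and 5753 CPM in the Cd163l1/Blk cells. It was 6691 CPM in WD and 5554 CPM in chow in CD3-negative cells with Il7r, Gata3 and a type 2 gene, and 1104 and 1362 CPM in other CD8-negative T cells. The list was drawn up with the known biology of such cells and with earlier results of these data in view, so its direction is no independent evidence.

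Interleukin 17A itself was rare and, at this depth, seen in WD members and not in chow members. Il17a (chromosome 1, 20730905 to 20734496, plus strand, mm10) had 102 UMIs in 10 of 68 WD members (14.7%, 7.28 to 25.4%). In 29 chow members it had 0 UMIs, where the exact interval ends at 11.9% of cells with a UMI and the floor of 3 cells is 10.3%. Neither value limits the cells that express the gene, and the share intervals of the diets overlap. Against a floor of 3 UMIs in chow, the summed UMIs were 17.1-fold higher in WD members. This is no minimum for the difference, since a single cell can hold more than 3 UMIs. The difference rests on few cells: 1 WD cell held 39 UMIs and another held 19. Over all kept cells, Il17a had 166 UMIs in 15 WD cells and 6 UMIs in 1 chow cell.

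Most of the Il17a UMIs came from outside the Cd163l1-positive cells. Only 2 of 32 WD Cd163l1-positive cells held Il17a, with 8 and 10 UMIs, and 1 Blk-only cell, the MHC class II-rich one described above, held 1 UMI. The other 7 Il17a-positive cells were Tmem176-only cells without MHC class II, with 1, 2, 4, 8, 10, 19 and 39 UMIs, and 5 of these 7 held Cd4 or Cd40lg, which encodes the CD40 ligand of helper T cells. In the Cd163l1/Blk cells alone, the same WD over chow ratio against a floor of 3 UMIs was 2.88-fold, from 19 UMIs in WD. Il17f, the related cytokine gene, had 2 UMIs in WD and 1 in chow members. The RefSeq promoter window of Il17a is shown because this gene defines the programme; the capitals mark its single match to AGGTCA, a core motif that many nuclear receptors bind, which was searched on both strands and read here on the reverse strand.
Il17a, chr1:20730655-20730954, plus strand: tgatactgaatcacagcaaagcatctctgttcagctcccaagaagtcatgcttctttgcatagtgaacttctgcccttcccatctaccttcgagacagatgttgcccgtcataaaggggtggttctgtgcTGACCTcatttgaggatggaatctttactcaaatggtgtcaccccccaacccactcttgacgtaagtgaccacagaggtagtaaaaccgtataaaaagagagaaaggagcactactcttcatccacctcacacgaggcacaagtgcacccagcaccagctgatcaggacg
AGGTCA occurred on either strand in 16.3% of 32851 promoter windows of the same length, and in neither of the 2 Tmem176 windows printed above.

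The T cell receptor machinery separated the members from other CD8-negative T cells in an uneven way. Cd3g, a CD3 chain, had 319 UMIs in the 32 WD Cd163l1-positive cells (2848 CPM, UMIs per 1000000 UMIs of the group) and 72 UMIs in the 10 chow ones (1675 CPM), against 929 CPM in WD and 961 CPM in chow other cells. Lck, the kinase that starts receptor signalling in conventional T cells, had 12 UMIs in 3 of 32 WD Cd163l1-positive cells (107 CPM) and 1 UMI in 1 of 10 chow ones (23.3 CPM), against 491 UMIs in 199 other WD cells (704 CPM) and 280 UMIs in 111 other chow cells (624 CPM). So CD3 RNA was abundant in these cells while Lck was detected in few of them. Over all members, the log2 ratio of Lck was -1.89 in WD and -2.41 in chow.

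Accessory molecules of conventional T cells were low with it. Cd28, a co-stimulatory receptor, had 5 UMIs in 1 WD Cd163l1-positive cell and 0 in chow ones, and its log2 ratio over all members was -1.96 in WD and -2.31 in chow. Cd6 and Cd2, adhesion and co-stimulation receptors, had log2 ratios of -2.86 and -1.78 in WD and -2.79 and -2.09 in chow. Cd4 had 2 UMIs in 2 WD Cd163l1-positive cells and 0 in chow ones; over all members it had 11 UMIs in 9 WD cells and 4 UMIs in 3 chow cells, with log2 ratios of -1.98 and -2.69. Thy1, a surface protein of T cells, was close to even, with log2 ratios of 0.52 in WD and 0.15 in chow. Of 14 T cell receptor signalling genes measured, 0 were at least 2-fold higher and 6 lower in both libraries (medians -0.67 in WD and -0.83 in chow, or -0.67 and -0.53 with the 1 gene at 0 UMIs in chow set at its bound), where 4.4% of all genes measured were higher and 4.11% lower. Without cells of at least 3 MHC class II UMIs, 0 of 14 were higher and 5 lower, or 4 lower at the bound. The medians at the bound were then -0.39 in WD and -0.13 in chow. In the Cd163l1/Blk cells alone 1 was higher and 6 lower, or 5 lower at the bound, with medians at the bound of -0.64 and -0.11. Over all genes, 4.42% were higher and 5.02% lower in the first setting, and 4.65% and 6.42% in the second. Over all members, among 11 CD4 helper genes 1 was higher and 5 were lower (medians -0.80 and -1.38), and in the Cd163l1/Blk cells alone this list's medians were -2.52 and -1.81.

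By size, 15 genes outside the rule led the members over other CD8-negative T cells. Of these, 7 were spread over the Cd163l1/Blk cells as well, among them Actn2 and Serpinb1a named above. The others were Avpi1, a vasopressin-induced gene, with 63 UMIs in WD members against 11 in other cells and 23 against 4 in chow (log2 ratios 3.69 and 3.90), and F2r, the thrombin receptor PAR1, with 62 against 13 in WD and 24 against 7 in chow (3.44 and 3.26). Hk2, a glycolytic hexokinase, had 42 UMIs in WD members against 9 and 15 in chow members against 6 (3.38 and 2.79). Jaml, a junctional adhesion molecule on gamma-delta and other T cells, had 42 against 11 and 15 against 5 (3.11 and 3.02). Ckb, the brain-type creatine kinase, had 135 UMIs in WD members against 44 and 58 in chow members against 23 (2.86 and 2.90), and its log2 ratios were 3.53 and 3.51 in the Cd163l1/Blk cells alone.

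The other 8 of the 15 had most of their UMIs in MHC class II-rich cells. Cd74, the invariant chain of MHC class II, had 3197 of its 3339 UMIs in WD members and 1964 of its 1987 UMIs in chow members within the 11 and 5 Tmem176-only cells of that kind. For H2-Aa these were 1109 of 1145 UMIs in WD and 700 of 712 UMIs in chow. Fabp5, a fatty acid binding protein gene, had 149 of 152 UMIs in WD and 29 of 32 UMIs in chow there. Without the cells of at least 3 MHC class II UMIs in either group, the log2 ratio of Cd74 was -0.61 in WD and -0.04 in chow, and that of Fabp5 was -0.83 and -0.11. The remaining 5 genes were Ifi30, Ctsh, Cd83, Basp1 and H2-Eb1, with log2 ratios between 2.96 and 3.78 in WD and between 2.83 and 3.69 in chow when all members were read. Of these, Cd83 had 186 of 200 UMIs in WD and 80 of 83 UMIs in chow in the 11 and 5 cells, and Basp1 38 of 51 and 18 of 21. Without cells of at least 3 MHC class II UMIs, the log2 ratio of Cd83 was 1.28 in WD and 0.22 in chow, from 5 and 3 UMIs in members, and that of Basp1 was 2.45 and 1.51, from 10 and 3 UMIs.

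**Figure D3:**
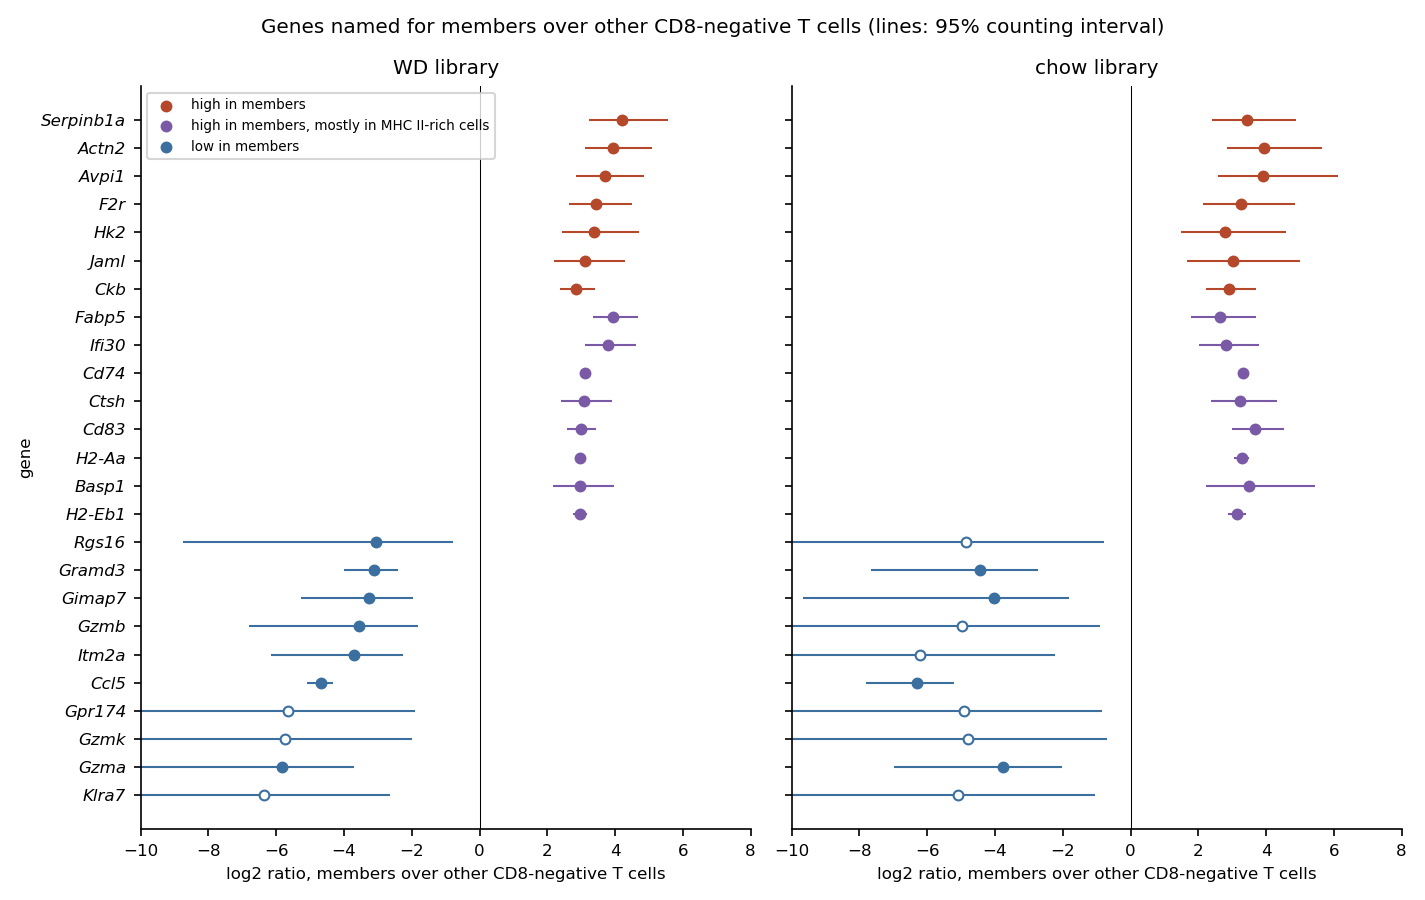
Log2 ratio of members over other CD8-negative T cells in WD (left) and chow (right) for the 15 highest and 10 lowest named genes, with exact 95% counting intervals that run off the axis where they end at 0; open points mark a gene with 0 UMIs in members. The 7 red genes and the 8 purple genes, which lie mostly in MHC class II-rich cells, are above 0 in both libraries, and the 10 blue genes are below 0.

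The 10 genes lowest in the members included 5 of cytotoxic lymphocytes. Ccl5, a chemokine of effector T cells, had 60 UMIs in 7 WD members against 3695 UMIs in 93 other WD cells, and 6 UMIs in 6 chow members against 1489 UMIs in 47 other chow cells (log2 ratios -4.68 and -6.29). Of the granzyme genes, Gzma had 1 UMI in WD members against 176 and 2 UMIs in chow members against 92. Gzmk had 0 UMIs in the members of both libraries, against 37 in WD and 20 in chow other cells. Gzmb had 2 against 64 UMIs in WD and 0 against 23 in chow.

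Other genes among the lowest were Klra7, an NK receptor, and Gpr174, a lysophosphatidylserine receptor, both with 0 UMIs in the members of either library. Itm2a, Gimap7, Gramd3 and Rgs16 completed the set; Gramd3, for example, had 15 UMIs in WD members against 319 in other cells and 2 UMIs in chow members against 149 (log2 ratios -3.13 and -4.45). Tbx21, which encodes T-bet, the factor of interferon gamma-producing cells, had 0 UMIs in WD and 2 UMIs in chow members. Ifng had 10 UMIs in 1 WD member and 0 UMIs in chow members, against 57 UMIs in 28 and 27 UMIs in 16 other cells. Of 19 interferon gamma and cytotoxic genes measured, 0 were at least 2-fold higher and 14 at least 2-fold lower in both libraries, where 4.4% of all genes were higher and 4.11% lower. The list's medians were -1.95 in WD and -2.67 in chow. Genes at 0 UMIs in one group lower such medians through the 0.5 UMIs added; set at the bound that a floor of 3 UMIs allows, the medians were -1.67 and -1.56, and 13 genes were lower. In the Cd163l1/Blk cells alone 14 of 18 were lower, where 6.42% of all genes were lower, or 8 with genes at 0 at their bound. The medians at the bound were then -1.96 and -0.77.

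Genes of naive and recirculating T cells were also low. Lef1, a transcription factor of naive T cells, had 19 UMIs in 7 WD members against 296 UMIs in 116 other WD cells, and 9 UMIs in 5 chow members against 188 UMIs in 68 other chow cells (log2 ratios -2.68 and -2.74). S1pr1, the receptor for leaving lymphoid tissue, had log2 ratios of -2.42 and -1.77. Of 13 such genes measured, 8 were lower and 0 higher in both libraries (medians -1.43 and -1.57), and 12 were lower, or 11 at the bound, without cells of at least 3 MHC class II UMIs. Over all genes measured, 4.4% were higher and 4.11% lower with all members, and 4.42% and 5.02% without those cells. Tissue residence and effector memory genes ran the other way: of 18 measured, 10 were higher and 1 lower, with medians of 1.26 and 1.18. Among them S100a4 and S100a6, calcium binding proteins of effector cells, had log2 ratios of 2.80 and 2.35 in WD and 2.23 and 1.98 in chow. The summed level of the 20 residence and memory genes was 17087.9 CPM in WD and 16556.5 CPM in chow members. In CD3-negative cells with Il7r, Gata3 and a type 2 gene it was 10628.7 and 16972.5 CPM, and in CD3-negative cells with C1q or Lyz2 UMIs 14776.5 and 17300.1 CPM. A high level of this list was thus not particular to the members.

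**Figure D4:**
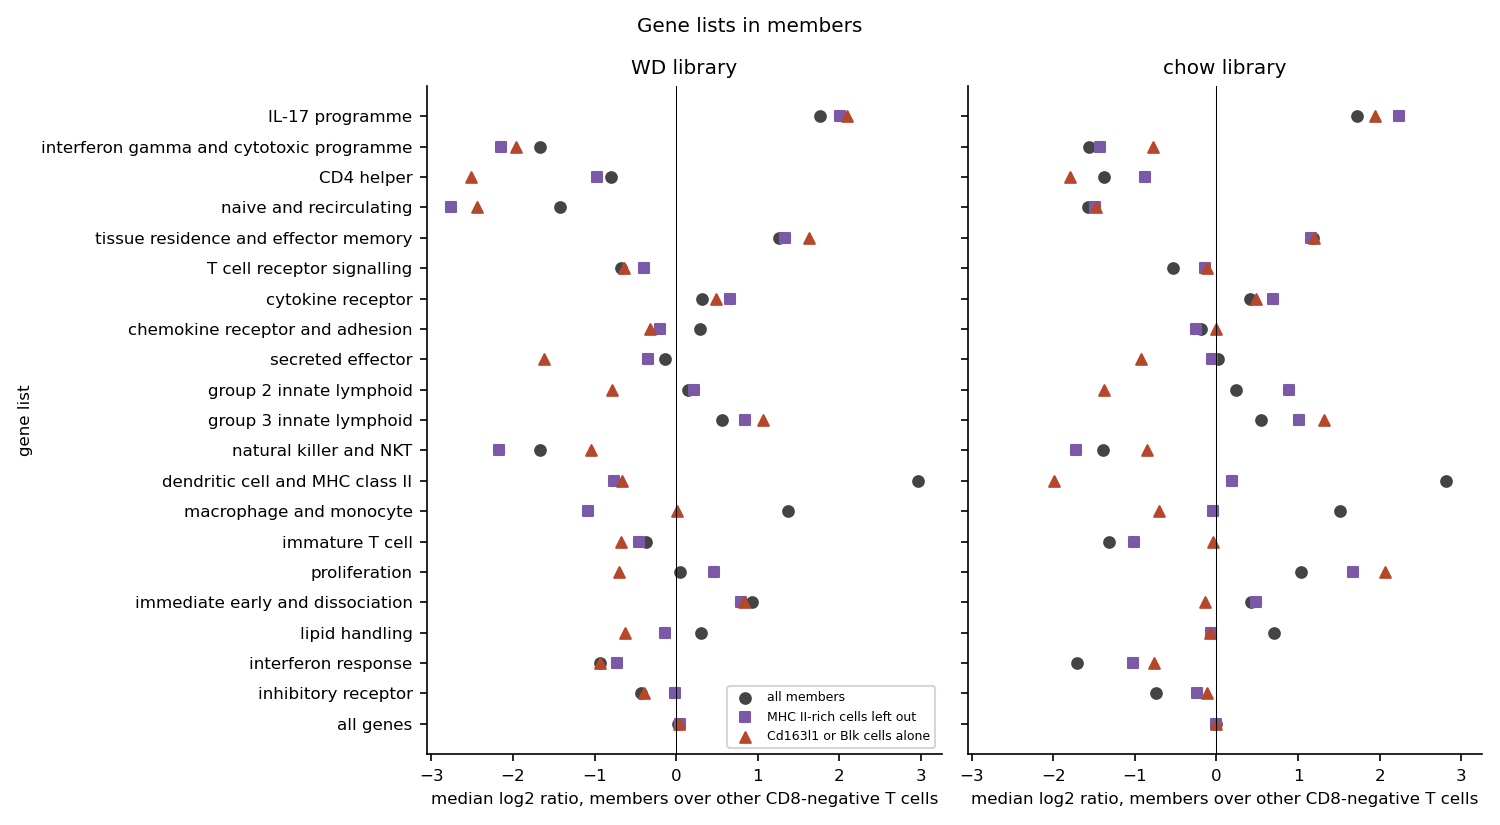
Median log2 ratio of each gene list, members over other CD8-negative T cells, in WD (left) and chow (right), with genes at 0 UMIs in one group set at their bound; circles are all members, squares leave out cells of at least 3 MHC class II UMIs and triangles are the Cd163l1/Blk cells alone. IL-17 programme and tissue residence genes lie to the right of 0 and cytotoxic, naive and NK genes to the left in both libraries, and the dendritic list is far to the right with all members (2.97 in WD and 2.82 in chow) and near or below 0 otherwise.

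The other lists are read against the 4.4% of all genes that were higher and the 4.11% that were lower, and a count of 0 or 1 in a short list is near that background. Among them, 3 of 15 cytokine receptor genes were higher and 0 lower, and 2 of 15 chemokine receptor and adhesion genes were higher and 3 lower. Of 16 secreted effector genes 3 were higher and 5 lower; Tnfsf11, which encodes RANKL, had 56 UMIs in WD members against 19 in other cells and 24 in chow members against 21 (log2 ratios 2.77 and 1.77). Il2ra, the high-affinity chain of the interleukin 2 receptor, had log2 ratios of 2.00 in WD and 3.38 in chow, and the co-stimulator Icos of 0.78 and 0.52. Of 14 interferon response genes 0 were higher and 5 lower, or 4 lower with genes at 0 UMIs at their bound (medians then -0.93 in WD and -1.71 in chow). Of 7 NK and NKT genes 2 were higher and 4 lower, or 3 lower at the bound, and of 16 immediate early genes 3 were higher and 0 lower. Without cells of at least 3 MHC class II UMIs, where 4.42% of all genes were higher and 5.02% lower, the higher NK and NKT genes were lost: 0 of 7 were higher and 6 lower, or 3 lower at the bound. Of 14 immediate early genes 1 was then higher, and 0 of 14 were higher in the Cd163l1/Blk cells alone. Of 13 cytokine receptor genes 4 were higher and 3 lower without those cells, and in the Cd163l1/Blk cells alone 4 were higher and 3 lower, or 1 lower at the bound. Lipid handling, group 3 innate lymphoid and proliferation lists had 1 gene each that was higher and 0 lower, of 10, 3 and 8 measured; the immature T cell list had 0 higher and 1 lower of 5, and the inhibitory receptor list 0 and 0 of 4. Without cells of at least 3 MHC class II UMIs, 0 of 9 lipid handling and 3 of 7 proliferation genes were higher. No B cell list gene outside the rule was measured. Macrophage genes had 5 higher of 6, and 1 higher and 2 lower of 5 without cells of at least 3 MHC class II UMIs.

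The MHC class II-rich Tmem176-only cells carried genes of dendritic cells. Of 10 dendritic cell and MHC class II genes measured, 8 were higher in the members of both libraries and 0 lower (medians 2.97 in WD and 2.82 in chow), and with all cells of at least 3 MHC class II UMIs left out 0 of 6 were higher and 1 was lower (-0.76 and 0.19). The shares over all genes were 4.4% higher and 4.11% lower in the first setting, and 4.42% and 5.02% in the second. Cd209a, a lectin of some dendritic cells, had 51 UMIs in 5 of 11 WD and 23 UMIs in 3 of 5 chow cells, and Flt3, a growth factor receptor of dendritic cells, had 16 UMIs in 7 and 4 UMIs in 3. Fscn1, an actin-bundling protein of mature dendritic cells, had 84 UMIs in 4 WD cells and 15 UMIs in 1 chow cell. Tyrobp, a signalling adaptor of myeloid and NK cells, was found in all 11 WD cells and all 5 chow cells. The summed level of the dendritic list was 78151 CPM in WD and 92227 CPM in chow in these cells, against 1179 and 652 CPM in the Cd163l1-positive cells. With the Blk-only cells added it was 2549 and 743 CPM, since 192 of the 324 WD UMIs lay in the 3 Blk-only cells. Of these cells, 5 of 11 in WD and 4 of 5 in chow met the CD3 clause with a single UMI. Their depth and their low CD3 sums stand beside these levels, and the part of either in the result was not tested.

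A further set of Tmem176-only cells held genes of type 2 lymphocytes. Il1rl1, the interleukin 33 receptor, was found in 3 WD members and 6 chow members, none of them Cd163l1/Blk cells, and all 6 chow cells also held Gata3, the transcription factor of type 2 lymphocytes. None of these WD or chow cells held a Cd3e UMI. Their CD3 sums were 1, 2 and 1 in WD and 1, 1, 1, 5, 2 and 4 in chow, so part of them met the CD3 clause with a single UMI. Whether they are T cells was not tested. Arg1, arginase 1, had 14 UMIs in 6 chow cells, Il5 had 13 UMIs in 3 and Csf2, the gene of the growth factor GM-CSF, had 48 UMIs in 5 chow cells of the 10 Tmem176-only cells low in MHC class II. The summed level of the group 2 innate lymphoid list was 1224 CPM in WD and 5082 CPM in chow in the Tmem176-only cells low in MHC class II, against 197 and 86.4 CPM in the Cd163l1/Blk cells and 540 and 1213 CPM in other CD8-negative T cells. Over all members, 1 of 10 genes of that list was higher and 1 lower, and in the Cd163l1/Blk cells alone 0 of 8 were higher and 6 were lower, or 3 with genes at 0 UMIs at their bound. Of all genes measured, 4.4% were higher and 4.11% lower over all members, so a count of 1 is near that background. For the Cd163l1/Blk cells alone these shares were 4.65% and 6.42%. The files also held 32 WD and 15 chow CD3-negative cells with Il7r, Gata3 and a type 2 gene. Cxcr6 was found in 26 of the 32 and all 15 of these, Tmem176b in 26 and 10, and Pxdc1 in 13 and 8, so none of these 3 genes was particular to the members.

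Between the diets, within members, 484 of 4484 genes measured were at least 2-fold higher in WD (10.8%) and 254 lower (5.66%). Among the 244 WD and 135 chow other CD8-negative T cells, 5.57% of 7026 genes were higher in WD and 4.61% lower. Without members of at least 3 MHC class II UMIs, 10.9% of genes were higher in WD and 6.74% lower, and in the Cd163l1/Blk cells alone 11.7% and 8.25%. The genes of the rule differed little, with log2 ratios of WD over chow of 0.21 for Cd163l1, 0.13 for Blk, 0.38 for Tmem176a, -0.02 for Tmem176b, and also 0.11 for Pxdc1. The IL-17 programme list had 7 of 24 genes higher in WD and 2 lower, with a median of 0.37, against a median of 0.03 for all genes. Without members of at least 3 MHC class II UMIs, 5 of 23 list genes were higher and 2 lower, with a median of 0.32. In the Cd163l1/Blk cells alone 4 of 22 were higher and 1 lower, with a median of 0.37, so the counts lay nearer to the shares over all genes given above.

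The highest gene in WD members apart from Il17a was Krt83, a hair keratin gene, with 57 UMIs in 30 of 68 WD members and 2 UMIs in 2 of 29 chow members (log2 ratio 3.64, ratio interval 3.8 to 122). It was also higher in WD among other CD8-negative T cells (1.85, with 24 UMIs in WD and 4 in chow), and in the Cd163l1/Blk cells alone the log2 ratio was 2.97. Arid1a, a chromatin remodelling subunit, had 30 UMIs in WD members and 2 UMIs in chow members (2.73), with a log2 ratio of 0.01 in other cells. Pdcd1, the inhibitory receptor PD-1, which was one of the list genes, had 103 UMIs in 36 WD members (353 CPM) and 13 UMIs in 6 chow members (88.5 CPM), a ratio of 4.00 (2.24 to 7.76). Within the Cd163l1-positive cells it had 79 UMIs in 25 of 32 WD cells and 9 UMIs in 4 of 10 chow cells, while in other CD8-negative T cells its log2 ratio was -0.56.

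Several of the largest differences lay in few cells. Marcksl1 had 99 UMIs in WD members and 5 in chow members, of which 84 in WD were in MHC class II-rich cells, and Tbc1d4 had 132 UMIs in WD members and 10 in chow members, of which 129 in WD were in such cells. Ccr7, the homing receptor of naive T cells and mature dendritic cells, had 216 UMIs in WD members and 22 in chow members, with 207 and 22 of them in MHC class II-rich cells. Ccl5, with 60 UMIs in WD members and 6 in chow members, had 53 of the WD UMIs there. Nkg7, a granule protein of cytotoxic cells, had 31 UMIs in WD members and 1 in chow members, with 20 UMIs in a single WD cell. For Ccr7 and Tbc1d4, each log2 ratio of members over other cells in WD was below 0 without cells of at least 3 MHC class II UMIs (-3.05 and -1.53).

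Lower in WD members were Csf2, with 23 UMIs in WD and 48 in chow (log2 ratio -2.02), Cxcl2, a chemokine for neutrophils, with 18 and 37 (-1.99), and Calca, the gene of the neuropeptide CGRP, with 22 and 39 (-1.78). The same genes were lower in WD among other CD8-negative T cells, at -1.88, -1.20 and -2.74. Those other cells also held type 2 genes, with the group 2 innate lymphoid list at 540 CPM in WD and 1213 CPM in chow. The part of such cells in these ratios was not tested. Cd300a, an inhibitory receptor of myeloid cells, had 14 UMIs in WD members and 23 in chow members (-1.66). Of these, 12 in WD and 23 in chow were in Tmem176-only cells, and 0 in Cd163l1-positive cells of either library. The long noncoding RNAs AY036118 and Gm26917, the gene Gm8797 and the pseudogene Rps26-ps1 had log2 ratios of -2.87, -1.59, -1.63 and -1.62 in members and of -2.13, -2.00, -1.23 and -0.87 in other cells. Rps26-ps1 resembles the ribosomal protein gene Rps26, so its counts are uncertain. Of 9 group 2 innate lymphoid genes measured between the diets, 7 were lower in WD members, with a median of -1.99, where 5.66% of all genes measured were lower. The Il1rl1-positive cells described above, 3 of 68 WD and 6 of 29 chow members, move with this difference, and in the Cd163l1/Blk cells alone the log2 ratio of Calca was 1.80, from 17 UMIs in WD and 2 in chow.

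**Figure D5:**
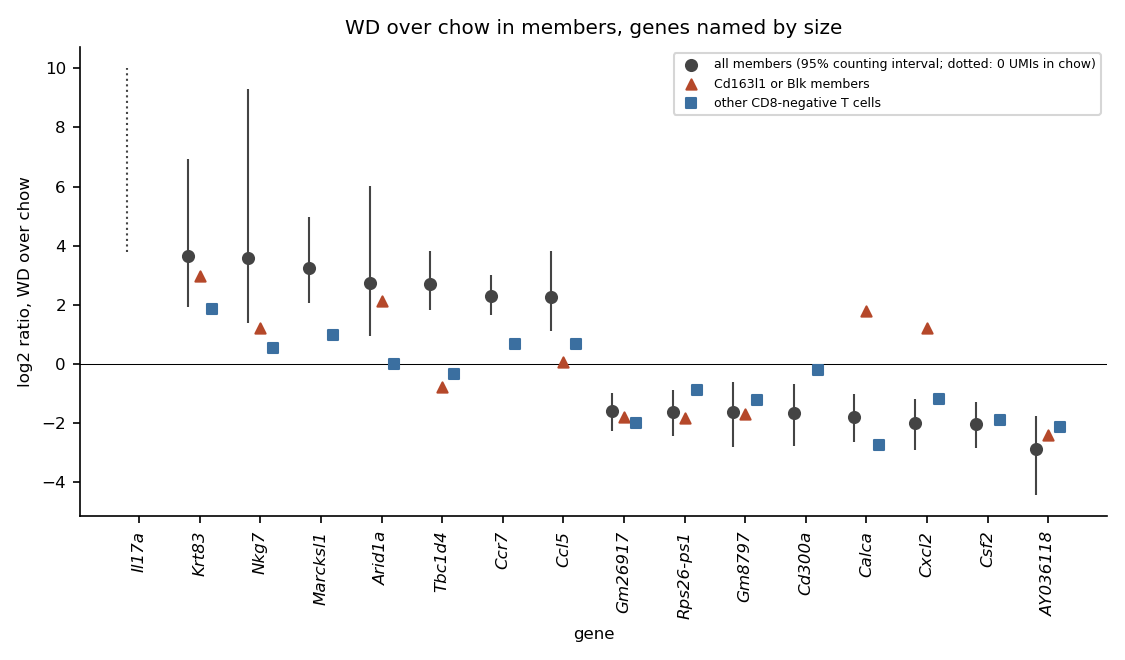
Log2 ratio of WD over chow for the 8 highest and 8 lowest by size, in all members (circles, with exact 95% counting intervals), in the Cd163l1/Blk cells alone (triangles) and in other CD8-negative T cells (squares); a point is left out where a library has 0 UMIs, and the dotted line runs up from the counting bound of Il17a. Krt83 is higher in WD in all 3 groups of cells, Csf2, Cxcl2 and Calca are lower in WD in all members and in other cells, and Calca and Cxcl2 are above 0 in the Cd163l1/Blk cells alone.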

How the data were processed

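Aortic leukocytes of 2 libraries were read from the deposited matrices of UMI counts per gene and barcode, which the authors had not normalized. Per the submitters' processing notes, Cell Ranger, STAR and mm10 were used, with no version stated in the sources used here. Of 27998 genes listed, 27645 gene IDs matched GENCODE M21. Kept cells had at least 200 genes and at most 10% mitochondrial UMIs. Doublets were called with Scrublet in scanpy 1.11.5 and removed only as an alternative.

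UMIs were summed over the cells of a group and scaled to the group's total (CPM). Ratios were read for genes with at least 10 UMIs over both groups, with 0.5 UMIs added on the log2 scale, and a gene was counted as higher or lower from 2-fold, in both libraries for members against other cells. Shares have exact binomial, levels exact Poisson and ratios exact conditional 95% intervals, and a group at 0 is given as a floor of 3 counts over the group. No p-value was computed, since cells of 1 library are not replicates. Droplet UMIs in cells that lack a gene were read from CD3-negative cells with at least 3 UMIs of Cd79a, Cd79b and Ms4a1.

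Named were the genes of the rule and the markers, the IL-17 programme list, the 15 highest and 10 lowest genes in members over other cells (interval excluding 1 in both libraries, at least 20 UMIs, a UMI in at least 5 cells of the higher group), the 8 highest and 8 lowest between diets (at least 30 UMIs), and up to 6 genes of each other list. The 21 lists held 296 genes. The members and lists were chosen with earlier results of these data known, and single cells and clause-wise counts were picked after their values were seen. The lists overlap, so 1 gene can count in several, and some listed genes are not reported here by name. Of 17 alternatives, 2 were added after seeing the data. The scripts were tested on simulated data. Python 3.11.15, numpy 2.4.6, scipy 1.17.1, pandas 2.3.3 and matplotlib 3.10.9 were used.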

Additional observations from a re-analysis of the deposited data

Results flagged for a closer look

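For 4 of the list and named genes, members lay above other CD8-negative T cells in 1 library and below them in the other, with both counting intervals excluding a ratio of 1. None of these differences between diets was tested, since each diet has 1 library. Klrd1, an NK receptor chain, had a log2 ratio of members over other cells of -1.28 in WD and 1.16 in chow, and 15 of its 17 UMIs in WD members and 26 of 26 in chow members were in the MHC class II-rich Tmem176-only cells. Ccr7 had log2 ratios of 0.92 in WD and -0.71 in chow, with 207 of 216 UMIs in WD members and 22 of 22 in chow members in the same cells. Cd7, a surface protein of T and NK cells, had log2 ratios of 0.73 in WD and -1.39 in chow, with 50 UMIs in 12 WD members and 9 UMIs in 6 chow members. Ly6a, an interferon-inducible surface protein, had log2 ratios of 1.07 in WD and -1.02 in chow, and within the Cd163l1-positive cells it was found in 19 of 32 WD cells and 1 of 10 chow cells.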

How the results depend on the processing

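No paired analysis was possible because each diet has 1 library. Of the single-gene log2 ratios under all settings, 2342 stayed within the counting interval of the reported value, 188 moved out of it without a change of sign of a called value and 35 changed sign. The counts of genes moved with the depth, the minimum and the top cell. In the order higher in members, lower in members, higher in WD members and lower in WD members, they were 78, 110, 174 and 91 with cells thinned to 1000 UMIs, 89, 78, 83 and 54 with a minimum of 30 UMIs, 770, 1007, 2840 and 1584 with a minimum of 1 UMI, and 118, 540, 291 and 540 with the top cell of each gene left out of the group on top of the ratio. Median-ratio scaling gave 326 lower in members. Leaving out the Tmem176-only cells gave shares of 1.70% in WD and 1.56% in chow, and 290 genes higher in WD members.

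Changes of sign follow, as log2 ratios of members over other cells unless said otherwise. With 2 Tmem176 UMIs enough, Rgs16 was 0.019 in chow, and Nkg7 WD over chow was -0.74. Without cells of at least 3 MHC class II UMIs, Fabp5 was -0.83 in WD and -0.11 in chow, Cd74 -0.61 and -0.042, H2-Eb1 -0.91 and -4.81, and in WD Marcksl1 -0.13, Tbc1d4 -1.53 and Ccr7 -3.05; Ccl5 WD over chow was -0.40. With 2 CD3 UMIs required, Fabp5 was -0.27 in chow, and WD over chow H2-Aa was 0.57, H2-Eb1 0.58 and Cd74 0.48. Without its top cell, Csf2 was -0.31 in WD. Without Tmem176-only cells, in WD Fabp5 was -1.91, Tbc1d4 -2.62 and Ccr7 -2.45, and in chow Ifi30 was -4.34. In WD and chow there, Ctsh was -0.27 and -3.97, Csf2 -0.52 and -6.05, H2-Aa -1.03 and -2.24, H2-Eb1 -1.13 and -4.33 and Cd74 -0.31 and -3.10. WD over chow there, Calca was 1.80, H2-Aa 1.19, H2-Eb1 2.98 and Cd74 2.74. Ifi30, Ctsh, Csf2 and H2-Eb1 in chow without Tmem176-only cells rest on 0 or 1 UMIs in members and are no bounds. The alternatives change which cells are summed; the cause of each change was otherwise not tested. With 29 chow members, a gene with 0 UMIs may have a UMI in up to 11.9% of such cells by the exact interval, where the floor of 3 cells is 10.3%. Depth sets no limit on how many cells express such a gene.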

Other observations

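Genes of dividing cells were detected unevenly. The proliferation list of 12 genes had a UMI in 52 of 68 WD and 26 of 29 chow members, with summed levels of 1167 CPM in WD and 1967 CPM in chow members, against 1155 and 834 CPM in other CD8-negative T cells. In the Cd163l1-positive cells it was 830 CPM in WD and 4863 CPM in chow, where the median cell held 3.84 and the highest 182 per 10000 UMIs. Birc5, a mitotic survivin gene, had 13 UMIs in 4 WD members and 11 UMIs in 1 chow member, and Mki67, a proliferation marker, had 4 UMIs in 3 WD members and 4 UMIs in 3 chow members. All 3 Mki67-positive chow members were Cd163l1-positive cells, against 1 of the 3 in WD. Ccl1, a chemokine gene of activated T cells, was found in 3 WD and 3 chow Tmem176-only cells low in MHC class II, with 61 and 39 UMIs, and in no Cd163l1-positive cell. These values carry no test.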
